A study of Drosophila melanogaster with 6 samples.

Results

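Among the coherent peaks of a Klumpfuss (Klu) targeted DamID experiment in the Drosophila midgut, 253 of 1122 (22.5%) touched 2 or more genes. A gene counted as touched when the deposited table listed it at distance 0 from the peak, and a peak was kept when 2 or more different gene symbols were so listed. The rule used positions only, not read counts. Of the remaining peaks, 756 touched 1 gene and 113 touched none. By overlap with the reference annotation, 460 coherent peaks held 2 or more genes, among them all 253. The peaks said here to touch 1 gene or none therefore include some that overlap 2 or more annotated genes. Of the 253 peaks, 236 touched 2 genes and 17 touched 3, and together they touched 507 different gene symbols.

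Klu was fused to the bacterial methylase Dam, and a control line carried Dam alone. Both transgenes sat behind a stop cassette that Flp recombinase, from UAS-Flp, removed once the driver was induced. The driver was esgts, the temperature-sensitive escargot driver of stem and progenitor cells. Flies were reared at 18 °C and, as the paper states, shifted to a higher temperature for the 24 h of induction. By genotype label the groups were esgts, UAS-Flp with UAS-Klu Dam, or with UAS-Dam as control. By the construct names in the paper's methods, however, both Dam transgenes carried a minimal heat-shock promoter, and Flp was under UAS. Each of the 3 Klu-Dam and 3 Dam-only samples was DNA from 30 to 40 whole midguts, and replicate sets were isolated on different dates. Removal of the cassette is permanent, so cells that descend from a recombined progenitor keep the transgene. Read counts were used for the 3 Klu-Dam libraries only. Those of Dam alone were not used, so every value below is a level of Klu-Dam reads in a peak the authors had already called, and none is an enrichment over Dam.

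Klu is a zinc-finger transcription factor related to the mammalian Wilms' tumour protein WT1, and in the midgut it acts in enteroblasts, the progenitors of absorptive enterocytes. Dam methylates the adenine of GATC wherever the fusion comes near DNA, so a peak is a run of GATC fragments and can be longer than a small gene. The fly genome is compact. Neighbouring genes may be divergent (head to head, both transcript starts facing the gap), convergent (tail to tail, both ends facing it) or in tandem (head to tail), and a small gene may sit inside an intron of a larger one. A peak over such places cannot be given to 1 gene by position. All 253 starts and all 253 ends of these peaks lay in a GATC site.

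Sequence between the touched genes is shown first, since it is the DNA that such a peak holds outside both gene bodies. The first 3 stretches lie between divergent genes, each on the plus strand of Release 6 (dm6), from the base after the left gene to the base before the right gene. Capitals mark TATCGATA, the DRE bound by the factor Dref, GCGTGGG, a core shared by sites of WT1 and EGR type zinc fingers, and GATC. They are the pair with both a DRE and the core, the pair with overlapping DREs, and the second highest divergent pair, whose gap holds a GATC site and no other of these letters.
Ostgamma/CG7818, 2L:8308193-8308426: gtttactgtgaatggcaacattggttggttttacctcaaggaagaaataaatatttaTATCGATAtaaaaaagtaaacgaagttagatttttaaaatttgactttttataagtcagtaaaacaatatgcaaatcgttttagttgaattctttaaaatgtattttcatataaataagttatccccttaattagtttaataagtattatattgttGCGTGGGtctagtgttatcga
SmB/KdelR, 2L:10426628-10426886: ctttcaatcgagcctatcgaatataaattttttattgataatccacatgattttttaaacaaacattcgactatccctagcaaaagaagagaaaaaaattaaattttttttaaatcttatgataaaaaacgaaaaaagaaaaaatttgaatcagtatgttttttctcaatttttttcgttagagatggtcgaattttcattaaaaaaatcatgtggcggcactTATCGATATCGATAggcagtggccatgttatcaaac
CG12082/BtbVII, 3L:3148359-3148645: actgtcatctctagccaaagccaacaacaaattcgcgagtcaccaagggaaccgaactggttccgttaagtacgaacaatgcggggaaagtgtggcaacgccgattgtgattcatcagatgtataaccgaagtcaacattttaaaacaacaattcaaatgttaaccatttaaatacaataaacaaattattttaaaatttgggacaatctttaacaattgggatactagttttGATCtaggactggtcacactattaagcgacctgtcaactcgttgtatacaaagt

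The core GCGTGGG lay between the starts of 6 divergent pairs. Beside Ostgamma/CG7818, the windows of AdSS/CG31223, CG14566/CG14572 and CG14971/CG42324 held no base of an annotated gene, and they are printed with 20 bases on either side of the core, in capitals, on the plus strand of Release 6. The core lay 87 bp from AdSS, 90 bp from CG14566 and 38 bp from CG14971. In the gaps of l(3)mbt/CG5938 and CG7133/RpLP0 it lay in another annotated gene, CG5934 and CG7130.
AdSS/CG31223, 3R:20830648-20830694: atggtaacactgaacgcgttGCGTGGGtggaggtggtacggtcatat
CG14566/CG14572, 3L:21740380-21740426: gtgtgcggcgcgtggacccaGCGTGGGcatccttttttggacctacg
CG14971/CG42324, 3L:3471328-3471374: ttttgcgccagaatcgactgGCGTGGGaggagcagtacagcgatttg

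The gaps of convergent pairs were shorter. Those of the highest convergent pair and of CG3987/GlyS, on the plus strand of Release 6, held none of the letters searched and no GATC site.
Atg3/ftz-f1, 3L:18750484-18750606: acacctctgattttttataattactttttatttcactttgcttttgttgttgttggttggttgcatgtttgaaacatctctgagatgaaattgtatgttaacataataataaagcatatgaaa
CG3987/GlyS, 3R:15141716-15141842: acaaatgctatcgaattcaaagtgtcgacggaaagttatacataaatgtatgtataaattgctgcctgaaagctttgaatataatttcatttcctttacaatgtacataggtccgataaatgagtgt

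By the listed gene starts and ends, the touched genes were neighbours without a shared base in 145 peaks (57.3%), nested in 68 (26.9%) and overlapping without nesting in 40 (15.8%). In the 145 peaks over neighbours, each edge lay in a different gene, so the peak bridged the gap between them. The gap ran from 8 to 2745 bp, with a median of 243 bp and quartiles of 127 and 528 bp. It was under 100 bp in 27 peaks and 1000 bp or more in 18. The gap took a median of 15.1% of its peak. Both edges lay in 1 of the genes in 59 of the 68 peaks over nested genes. In 5 peaks a symbol was listed at more than 1 interval, and with the outermost ends of each symbol 67 peaks were nested and 41 overlapping.

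**Figure D1:**
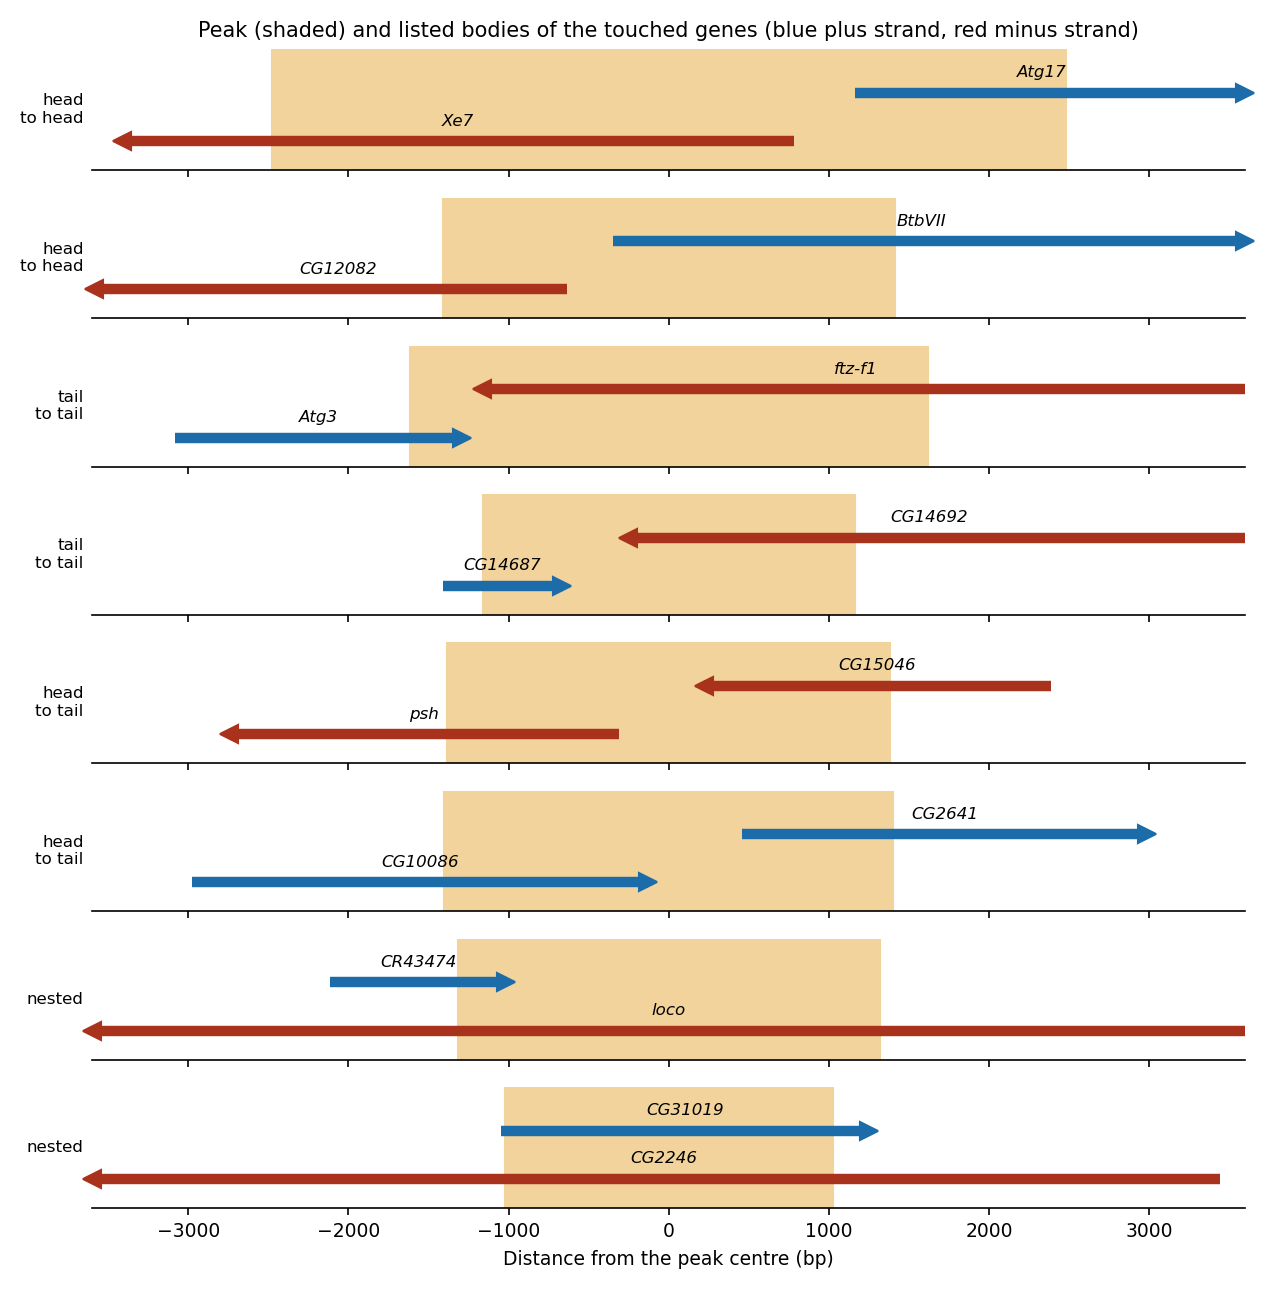
Maps of the highest 2 peaks over divergent (head to head), convergent (tail to tail), tandem (head to tail) and nested gene pairs. Each shaded box is a peak, each bar a listed gene body with the arrow pointing in the direction of transcription, and the axis is the distance from the peak centre in bp. Bodies that run past the frame are cut at its edge. The peaks over neighbours reach into both genes, while the peaks at loco and CG2246 lie within the larger gene.

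By strand, 43 of the 145 neighbouring pairs were head to head (29.7%), 38 tail to tail (26.2%) and 64 head to tail (44.1%). Of all 8656 adjacent pairs of the reference annotation with a gap of up to 2745 bp, 30.5% were head to head, 19.9% tail to tail and 49.6% head to tail. Adjacent pairs have no other gene between them, which does not hold for all pairs under these peaks. Only 32 head to head, 36 tail to tail and 50 head to tail gaps held no base of another annotated gene. The tail to tail share depends on the gap, since with gaps of up to 243 bp it was 41.1% of 73 pairs under these peaks and 30.8% of 3520 pairs in the annotation. Median gaps were 318 bp head to head, 123 bp tail to tail and 291 bp head to tail. Peaks can bridge short gaps more easily than long ones, and these shares are a description without a test. Among the peaks over overlapping pairs of 2 genes, 25 pairs were tail to tail, 9 head to head and 2 head to tail. Among nested pairs, 37 were on opposite strands and 14 on the same strand.

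Transcript starts and ends of the touched genes followed from these arrangements. Starts of 2 or more touched genes lay inside 60 of the 253 peaks, starts of 1 gene inside 96 and no start inside 97. Ends of 2 or more genes lay inside 67, ends of 1 gene inside 95 and none inside 91. Both starts lay inside 42 of the 43 peaks over head to head neighbours, and both ends inside all 38 over tail to tail neighbours, which bridging a gap largely fixes. Peaks over nested genes held no start of a touched gene in 35 of 68 cases. Of the 756 peaks that touched 1 gene, 604 held no start of it. The midpoint of the peak lay in the gap in 17 of 43 head to head, 7 of 38 tail to tail and 29 of 64 head to tail pairs. In tandem pairs the peak covered a median of 677 bp of the upstream gene and 593.5 bp of the downstream gene, and 33 of 64 peaks covered more of the downstream gene.

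Read counts were scaled to CPM, counts for each 1000000 of the reads in all coherent peaks of a library. The 253 peaks held 4035537, 3935569 and 4197842 reads in replicates 1, 2 and 3, which was 20.7%, 21.5% and 22.9% of the reads in coherent peaks (mean 21.7% ± 1.11, SD, n = 3). They made up 22.8% of the bases in those peaks. Their median count was 2979, 3192 and 3199 reads and the lowest was 282, with a median counting error of 1.79% per peak and library. The coefficient of variation (CV) over libraries was above the counting error in 250 peaks and not above it in 3. Amplified reads are not independent molecules. The median width was 1723 bp, against 1663 bp for peaks touching 1 gene, and the median number of GATC fragments was 6 in both.

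Read density, as the median log2(CPM per kb), was 6.54, 6.65 and 6.62 for these peaks in replicates 1, 2 and 3, and 6.44, 6.65 and 6.54 for peaks touching 1 gene. The difference was 0.06 ± 0.05 (SD, n = 3) and did not pass an exact two-sided sign-flip permutation test (p = 0.5), for which 0.25 is the smallest p that 3 libraries allow. Against the 113 peaks touching no gene, the peaks were lower in 3 of 3 libraries, by a mean log2 difference of -0.18 ± 0.08 (SD, n = 3, exact permutation p = 0.25). Of the 10, 50 and 100 highest coherent peaks, 1, 10 and 25 touched 2 or more genes, and of the 100 lowest, 14 did. No difference could therefore be shown between these peaks as a whole and those touching 1 gene.

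Taken over all peaks of a kind, read density had the same order in each library, highest over neighbours and lowest over nested genes. Peaks over neighbouring genes had a median log2(CPM per kb) of 6.82, 7.04 and 6.85 in replicates 1, 2 and 3, those over overlapping genes 6.37, 6.49 and 6.44, and those over nested genes 5.87, 6.17 and 6.13. Neighbours were above nested in 3 of 3 libraries, with a mean log2 difference of 0.84 ± 0.12 (SD, n = 3) or 1.80-fold. They were above overlapping in 3 of 3 libraries by 0.47 ± 0.07 (SD, n = 3), and overlapping was above nested in 3 of 3 by 0.38 ± 0.10 (SD, n = 3). Each of these differences had an exact permutation p = 0.25, the smallest possible, and 0.3 after Benjamini-Hochberg adjustment over the 6 differences between kinds. These differences are larger than the spread between libraries, but 3 libraries cannot bring the p of any of them under 0.05. The libraries all counted the same peaks, so their spread does not measure how peaks of a kind vary. Mean CPM per peak ran from 18.2 to 20537 over neighbours, 25.3 to 3619 over overlapping and 26.3 to 13010 over nested genes. Peaks over nested genes also had a higher GC content, with a median of 46.9% against 44.3% for neighbours, whose part in the difference was not tested. Both edges lay in 1 gene for 59 nested, 12 overlapping and 0 neighbour peaks. Among these, nested peaks had 5.82, 5.97 and 5.92 and overlapping peaks 5.66, 6.01 and 5.94. With edges in different genes, the 7 nested peaks had 6.78, 6.89 and 6.55 and the 28 overlapping peaks 6.72, 6.68 and 6.54. These last levels were below those of neighbours. Split by edges, overlapping was not above nested in each library. The part of the edges was not tested.

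**Figure D2:**
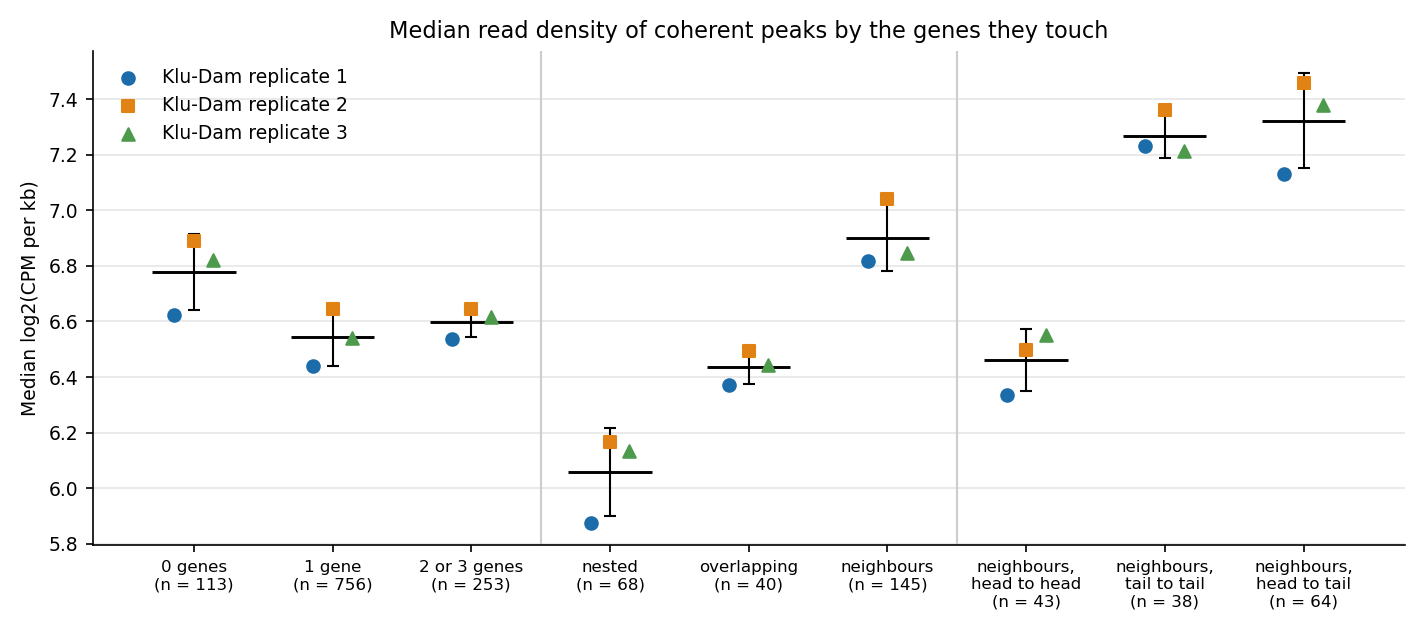
Median log2(CPM per kb) of coherent peaks by the number of genes touched, by how the touched genes lie, and by orientation of neighbours. Points are the 3 Klu-Dam libraries, horizontal bars their mean and error bars the SD, and n is the number of peaks. Peaks over nested genes lie lowest (mean 6.06) and tail to tail and head to tail neighbours highest (7.27 and 7.32).

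Among neighbours, peaks over divergent pairs were lower than the others. Their median log2(CPM per kb) was 6.34, 6.50 and 6.55 in replicates 1, 2 and 3, against 7.23, 7.36 and 7.21 for convergent and 7.13, 7.46 and 7.38 for tandem pairs. Convergent pairs were above divergent pairs in 3 of 3 libraries by 0.81 ± 0.13 (SD, n = 3), and tandem pairs by 0.86 ± 0.09 (SD, n = 3), each with an exact permutation p = 0.25 (adjusted 0.3). The order of convergent and divergent pairs was the opposite among overlapping genes, with 7.15, 7.60 and 7.63 for the 9 divergent pairs and 6.14, 6.29 and 6.34 for the 25 convergent pairs, a difference that was not tested. With neighbouring and overlapping pairs together, convergent pairs had 6.62, 6.75 and 6.57 and divergent pairs 6.39, 6.62 and 6.64, so that convergent pairs were higher in replicates 1 and 2 and lower in replicate 3. Below convergent pairs, the level of divergent pairs therefore lay for neighbours without a shared base only. Tandem pairs, neighbouring and overlapping together, had 7.13, 7.46 and 7.38, above divergent pairs in each library. Only 2 of these tandem pairs were overlapping. Tandem and convergent neighbours were not told apart, at 0.05 ± 0.14 (SD, n = 3, exact permutation p = 0.75). Peaks over divergent pairs had fewer GATC fragments per kb, with a median of 3.00 against 3.57 for convergent and 3.73 for tandem pairs. Counted per GATC fragment in place of per kb, the differences to divergent pairs were 0.72 and 0.44. Of the 25 of these peaks among the 100 highest coherent peaks, 10 lay over tandem, 5 over convergent and 2 over divergent neighbours, and 4 each over overlapping and nested genes.

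Reads were concentrated in few of the peaks. The 10 highest held 47.4% ± 2.29 (SD, n = 3) of the reads of all 253, and 12 held 50%. The highest spanned the convergent ends of Atg3, the conjugating enzyme that attaches Atg8 to lipid in autophagy, and ftz-f1, a nuclear receptor that times metamorphosis (3L:18750155-18753387). It held 21347, 17251 and 23012 CPM in replicates 1, 2 and 3, and 2781 bp of its 3233 bp lay in ftz-f1. It had rank 3 among all coherent peaks. The peak over the tandem pair psh, a serine protease upstream of Toll in immunity, and CG15046 (X:18485850-18488614) held 15722, 17088 and 13357 CPM. These 2 peaks were above every other of the 253 in replicates 1 and 2. In replicate 3 the peaks over CG34310, cup and Galt and over loco and CR43474 were above that of psh.

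The peak over CG34310, cup and Galt lay in a nested arrangement, with both edges in 1 gene (2L:6667407-6669824). The gene cup encodes a translational repressor that binds eIF4E, and Galt, on the other strand, encodes an enzyme of galactose breakdown. The peak held 9307, 11573 and 18149 CPM. In the table CG34310 and cup had the same start and end. The next nested loci were the peak over loco, an RGS protein, and the non-coding CR43474 (3R:22630370-22633004), with 10962, 9844 and 14350 CPM, and the peak over CG2246 and CG31019 (3R:30597024-30599073), with 10087, 9411 and 10504 CPM. With the next nested pair, CG33203/CG14528, at 2366 ± 626 CPM (SD, n = 3) against a median of 102 over all 68, the 3 loci stood far above the rest of their kind.

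The sixth to the tenth place were held by tandem and convergent neighbours. CG10086/CG2641 had 4317, 6097 and 11623 CPM in replicates 1, 2 and 3, a CV of 51.9% with replicate 3 the highest. CG14687/CG14692, convergent, had 8455, 7737 and 5161 CPM, with replicate 3 the lowest. The others were tandem, and their libraries did not differ by as much. CG6574/SelR, the latter a methionine sulfoxide reductase, had 6625 ± 823 CPM (SD, n = 3). Abl/Baldspot, a tyrosine kinase and a fatty acid elongase, had 5894 ± 719 CPM (SD, n = 3), and CG11399/CG11396 had 5202 ± 441 CPM (SD, n = 3).

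Peaks over divergent pairs were lower than these. The highest spanned Xe7 and Atg17, a scaffold of the Atg1 kinase complex in autophagy (3R:5666073-5671031, 4959 bp), with 2930, 2686 and 3279 CPM. CG12082/BtbVII had 2428, 2523 and 2256 CPM, and the overlapping divergent pair of CG7208 and Arp5, an actin-related subunit of the INO80 remodelling complex, had 2649, 2645 and 1898 CPM. Xe7/Atg17 was above both others in each library, while the order of these others differed between libraries. The other high convergent pair, CG3987/GlyS, the latter glycogen synthase, had 2062, 2287 and 4182 CPM. The highest overlapping pairs were CG11986/tgo, tgo being the common partner of bHLH-PAS factors, at 2480 ± 314 CPM (SD, n = 3), and CG18135/CG3808 at 2447 ± 756 CPM (SD, n = 3).

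**Figure D3:**
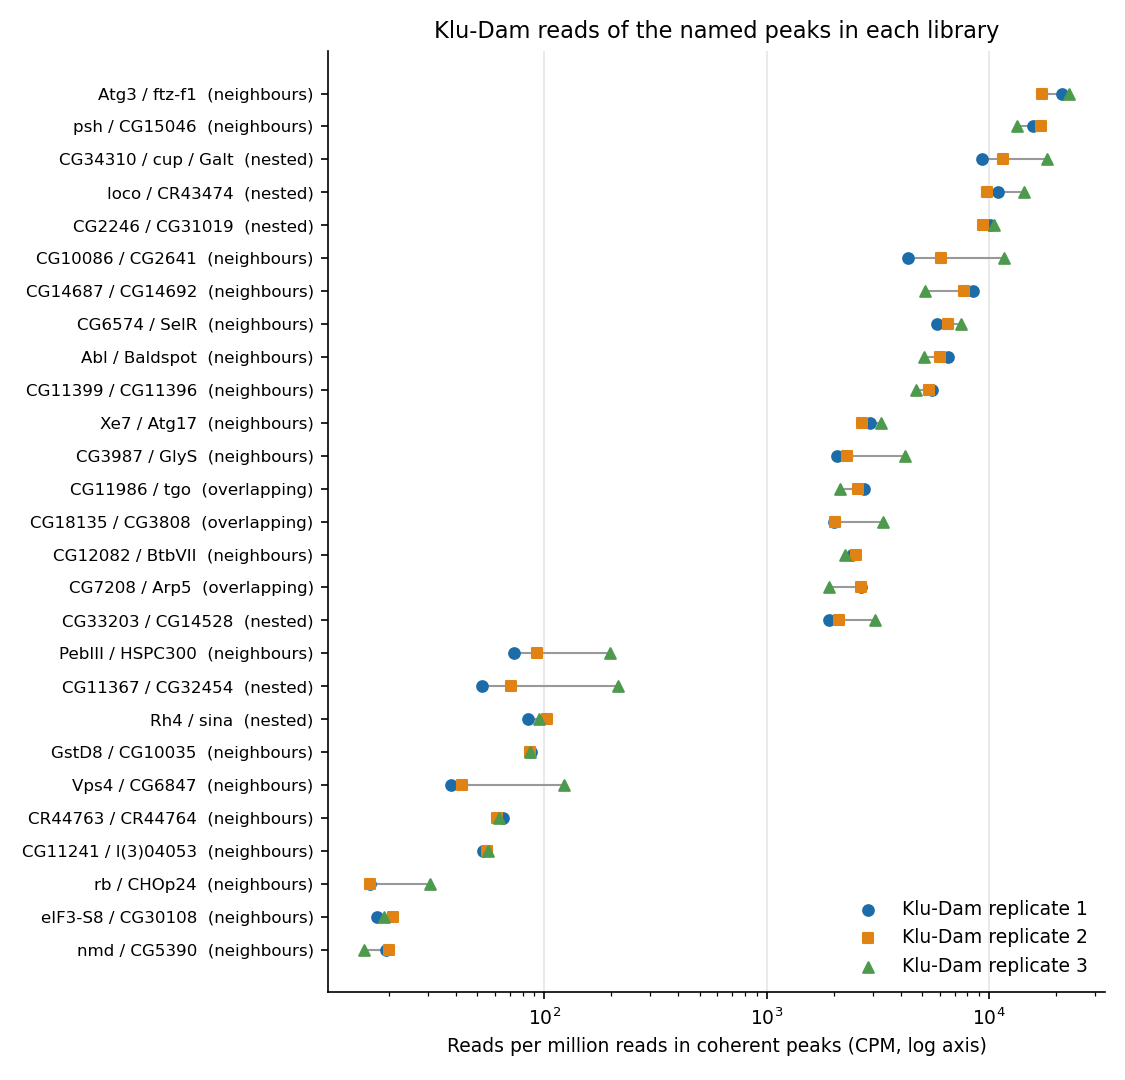
CPM (log axis) of the 27 named peaks in each Klu-Dam library. Points are replicates 1, 2 and 3, lines join the lowest and the highest, and the relation of the touched genes stands in brackets. The levels run from 18.2 to 20537 mean CPM, and replicate 3 stands apart for CG10086/CG2641, CG11367/CG32454 and Vps4/CG6847.

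Peaks of 3 genes were nested in 13 cases and overlapping in 4, and their mean CPM ran from 35.8 to 13010 with a median of 144. As each listed gene had to hold an edge of the peak, 3 genes without a shared base could hardly be listed together. After the peak over CG34310, cup and Galt, the next highest lay over PGAP5, SLC5A11 and CR44119 (2L:8199089-8201786, 3619 ± 126 CPM, SD, n = 3) and over alpha-Spec, the spectrin subunit, dlt and Cdc37 (3L:1793426-1796649, 747 ± 127 CPM). Of the 17, 1 lay over snoRNA:Me18S-C1831, a small nucleolar RNA gene, with RpL27A and Gs1l, at 144 ± 16.7 CPM (SD, n = 3).

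Some genes were touched by more than 1 of these peaks. This held for 16 symbols, each touched by 2 peaks, and 24 peaks shared a gene with another. The levels of such a pair of peaks could differ widely. The second peak over CG34310, cup and Galt (2L:6665100-6667003) held 102 ± 11.2 CPM (SD, n = 3) against 13010 ± 4593 in the first. The second over loco and CR43474 held 129 ± 27.0 CPM (SD, n = 3) against 11719 ± 2347. The peaks over Adgf-A and Msi held 1476 ± 275 and 45.9 ± 2.60 CPM (SD, n = 3). In all 3 libraries the higher peak of each of these loci was the same.

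The lowest peaks still held at least 282 reads in each library. They lay over nmd/CG5390 (19.4, 20.0 and 15.4 CPM), over eIF3-S8, a subunit of translation initiation factor 3, and CG30108 (17.7, 20.9 and 19.1 CPM), and over rb, a subunit of the AP-3 adaptor complex, and CHOp24 (16.5, 16.4 and 30.5 CPM). The CV over libraries had a median of 15.0% over the 253 peaks and 16.7% over all coherent peaks. The SD of the log2 CPM ratio was 0.27 between replicates 1 and 2, 0.54 between 1 and 3, and 0.44 between 2 and 3. In the other coherent peaks it was 0.27, 0.63 and 0.54. Replicate 3 thus stood apart from the others in both sets, which is not particular to these peaks. Replicate 1 was the lowest library in 125 of the 253 peaks, replicate 2 in 26 and replicate 3 in 102.

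Spread was largest at CG11367/CG32454 (3L:22729427-22729974), with 52.6, 70.6 and 214 CPM and a CV of 78.6%. Both symbols carried the same FlyBase identifier, FBgn0260481, so by identifier 252 peaks touched 2 or more genes. Vps4, an ATPase that recycles ESCRT-III, and CG6847 had 37.9, 42.6 and 123 CPM (CV 70.5%), and PebIII/HSPC300, the latter a subunit of the SCAR complex, had 72.9, 92.2 and 198 CPM (CV 55.7%). In these 3 peaks replicates 1 and 2 lay together and replicate 3 was the highest. The smallest spread was at GstD8, a glutathione S-transferase, and CG10035 (87.3, 85.8 and 85.7 CPM, CV 1.02%), followed by the tandem pair of CG11241 and its right neighbour (CV 2.80%) and the non-coding pair CR44763/CR44764 (CV 3.11%).

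The share of peaks that touched 2 or more genes differed between chromosome arms. It was 14.5% on X (32 of 220), 23.7% on 2L (41 of 173), 21.0% on 2R (48 of 229), 24.6% on 3L (52 of 211) and 28.0% on 3R (80 of 286), and 0 of 3 peaks on the fourth chromosome did so. Gene density was not set beside these shares.

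The touched genes were read against families defined by symbol. Of 513 listed touched genes, 496 were protein-coding, 16 non-coding RNAs and 1 a small nucleolar RNA in the reference. Of the 9 cytoplasmic ribosomal protein genes listed near any coherent peak, 5 were touched, RpL19, RpL26, RpL27A, RpL8 and RpLP0. This was 0.986% of the 507 touched symbols, beside 0.536% of the 1678 symbols listed near any peak. Their peaks held from 113 (msn/RpL8) to 345 (CG30424/RpL19) mean CPM. RpLP0 was reached by 24 bp only, at the right edge of its peak. The mitochondrial ribosomal protein gene mRpL38 was touched by 2 peaks, at 1516 ± 403 CPM and 281 ± 31.6 CPM (SD, n = 3). Of all symbols listed near any coherent peak, 30.2% were touched in these peaks. The other families had 1 of 7 listed mitochondrial ribosomal protein genes, 2 of 6 proteasome genes, 1 of 14 small nucleolar RNA genes and 1 of 15 microRNA genes touched, and with so few genes no family is set apart by these counts. Proteasome genes were touched in 2 peaks, Prosbeta6 and Rpt5 at 98.8 and 33.6 mean CPM. The microRNA gene mir-4958 lay wholly inside the peak at Tob (404 ± 47.8 CPM, SD, n = 3).

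Of a list of 31 genes that act in the Notch pathway, in enteroendocrine cells or in cell division, 7 were listed near a coherent peak and 1, sina, was touched in these peaks, beside the 30.2% of all listed symbols. The gene sina encodes a ubiquitin ligase that removes Tramtrack, and it lies within the listed body of Rh4, an opsin of R7 photoreceptors, on the other strand. The peak (3L:16854806-16856667) held 84.3, 103 and 94.3 CPM in replicates 1, 2 and 3, and its mean of 93.8 CPM was the median of the 37 nested pairs on opposite strands. The whole peak lay inside the listed bodies of both genes.

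Sequence motifs were searched as exact letters on both strands, TATCGATA (DRE), GCGTGGG (WT1 and EGR type core), GTGGGAA (a site of Su(H), the transcription factor of Notch signalling, which shares 5 letters with the core) and, for repeats bound by Trithorax-like, GAGAGAG. In 300 bp about the peak midpoint, the core was found in 1.98% of the 253 peaks and 2.50% of all coherent peaks, DRE in 3.56% and 2.05%, the Su(H) site in 1.98% and 3.48%, and the Trithorax-like repeat in 1.98% and 3.12%. Of peaks touching 1 gene, 2.12% held the core and 1.59% DRE in these windows. The Wilson 95% interval over the 253 peaks was 0.847% to 4.54% for the core, which takes in its share in peaks touching 1 gene. For DRE it was 1.88% to 6.62%, which lies above the share in peaks touching 1 gene (12 of 756) but takes in that of all coherent peaks. No interval was set on the share in peaks touching 1 gene. By the rule the sets also differ in starts of touched genes, with none in 604 of 756 peaks touching 1 gene and in 97 of the 253. Starts of annotated genes that did not count as touched were left out of these numbers. These intervals cover counting of peaks only, not the spread between libraries. Over whole peaks, DRE was found in 13.4% (34 of 253), against 5.56% of peaks touching 1 gene and 7.75% of all coherent peaks. The core was found in 17.8% and 19.5% of all peaks.

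The DRE letters were most frequent under divergent pairs. They were found in 16 of 43 peaks over head to head neighbours (37.2%), in 11 of 64 over head to tail neighbours (17.2%) and in 0 of 38 over tail to tail neighbours. In the gap between the genes, they were found in 10 of 43 head to head pairs (23.3%), beside 15.9% of all 2406 head to head gaps of 8 to 1587 bp in the annotation. They lay in 7 of 64 head to tail gaps (10.9%, beside 6.81%) and in 0 of 38 tail to tail gaps (beside 0.884%). In promoters, 250 bases before to 50 after the start, DRE was found for 14.8% of 506 touched genes, 23.3% of 86 genes of head to head neighbours and 9.36% of all 13945 protein-coding genes. The 16 peaks over head to head neighbours with a DRE had a median of 442 mean CPM (33.6 to 2965), and the 27 without had 134 (21.1 to 2038). These ranges overlapped over most of their length, and the median width was 2098 bp with and 1820 bp without a DRE.

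**Figure D4:**
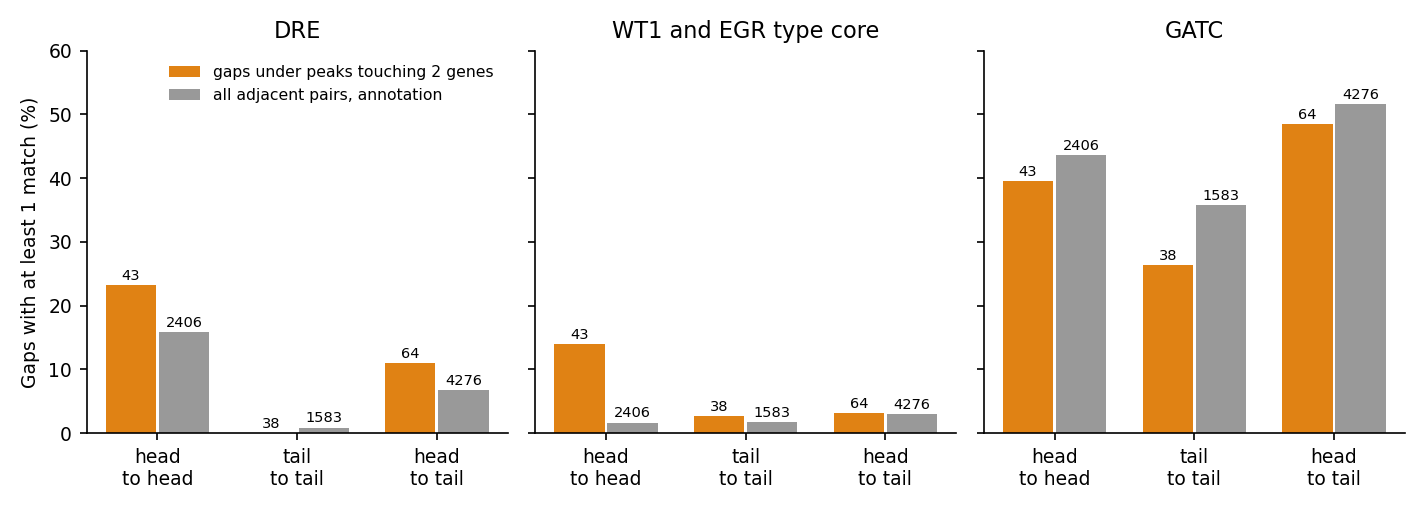
Share of gaps between neighbouring genes that hold DRE, the WT1 and EGR type core or GATC, by orientation. Orange bars are gaps under the peaks, grey bars all adjacent gene pairs of the annotation with gaps of the same range, and the number over each bar is the number of gaps. DRE was found in 23.3% of head to head gaps under peaks and in 0 of 38 tail to tail gaps.

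The core GCGTGGG was found in 6 of 43 head to head gaps (14.0%), the pairs named above, beside 1.66% of the 2406 head to head gaps of the annotation. It was found in 1 of 38 tail to tail gaps (2.63%, beside 1.77%) and 2 of 64 head to tail gaps (3.12%, beside 2.97%). The gaps of the annotation hold no other gene, while some under the peaks do. With those left out, a step chosen after seeing the data, the core was found in 3 of 32 head to head gaps (9.38%) and DRE in 8 of 32. Over whole peaks the core was no more frequent under divergent pairs, at 7 of 43 (16.3%) beside 20.5% of peaks touching 1 gene. The 6 peaks held from 70.9 (AdSS/CG31223) to 2038 (l(3)mbt/CG5938) mean CPM. A match shows the letters only, with no measure of binding at that place, and 6 gaps are few.

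The number of genes at a peak depended on how touching was defined. Each of the 253 peaks overlapped 2 or more genes of the reference annotation, and 9 overlapped 4. An annotated gene lay wholly inside 30 of them, and 43 overlapped an annotated gene that the table did not list at distance 0. By the reference annotation with at least 1 bp of overlap, 460 coherent peaks overlapped 2 or more genes. The sets touching 1 gene or none, used for comparison above, are thus not free of peaks over 2 or more annotated genes. All 253 peaks overlapped a semicoherent peak, 202 with the same edges, and for 6 the semicoherent peak touched fewer than 2 genes.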

How the data were processed

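Targeted DamID reads were aligned by the authors to dm6 with bowtie2 in damidseq_pipeline, and peaks were called on the log2 ratio of Klu-Dam over Dam-only on GATC fragments. How reads were counted over peaks, and what coherent and semicoherent mean, is not given in the sources used here. The submitters' processing notes also name HOMER. The deposited tables hold whole-number read counts per peak for 3 Klu-Dam libraries, unscaled and with no Dam-only signal taken off, along with positions and the listed distance to each gene. By the authors' annotation script, a gene is at distance 0 only if an edge of the peak lies in it. Dam-only counts were not used here, and 0 count columns were left out.

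After 2 repeated rows had been dropped, 1122 distinct coherent peaks remained. Listed touched genes were matched to the Release 6 Ensembl annotation by identifier (496 of 513), by symbol at the listed position (14) or by position (3), and 12 identifiers lay elsewhere in the reference. Counts were scaled to CPM of the reads in coherent peaks, and nothing was filtered. Libraries, not peaks, were the replicates. Labels state separate isolation dates. Differences of medians were tested by exact two-sided sign-flip permutation. Sequences came from the RefSeq Release 6 genome. The text names the peaks, with their genes, of the 10 highest mean CPM, the 3 highest per relation and orientation, the 3 lowest, the 3 largest and 3 smallest CVs and any touching a listed fate gene. Other peaks were named after their values were seen. Members, lists and tests were chosen with earlier results of these data known. Scripts were tested on simulated data. Computations ran in Python 3.11.15 with pandas 2.3.3, numpy 2.4.6, statsmodels 0.14.6, scipy 1.17.1 and matplotlib 3.10.9.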

Additional observations from a re-analysis of the deposited data

How the results depend on the processing

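No paired analysis was possible because replicate numbers pair Klu-Dam with Dam-only samples and only Klu-Dam counts were used. Differences between sets of peaks were taken within each library. The number of peaks with 2 or more genes became 460 with reference genes overlapping by 1 bp, 431 with an overlap of 100 bp and 399 with protein-coding genes, and 130 when peaks below the median count were dropped. Counts of nested, overlapping and neighbouring genes stayed within 1.5 times under reference positions and semicoherent peaks. The share of reads was 11.9% of library totals. The median CV ran from 10.7% without replicate 3 to 16.5% without replicate 2. Over whole peaks the core, DRE, Su(H) site and Trithorax-like repeat were found in 17.8%, 13.4%, 19.0% and 15.4%, and the Su(H) site in 5.14% of 500 bp windows, as longer windows hold more letters. The difference between peaks with 2 or more genes and 1 gene was 0.06 on the log2 scale and kept its sign under its 8 alternatives, but its size moved, to 0.17 in semicoherent peaks, 0.15 per peak, 0.14 per GATC fragment and 0.03 against all other peaks, and from 0.04 without replicate 1 to 0.09 without replicate 2. In replicate 2 alone it was -0.00025.

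The differences between kinds, whose alternatives were all chosen after seeing the data, kept their sign with 1 exception. Head to tail minus tail to tail became -0.21 per peak and -0.28 per GATC fragment (log2), and ran from -0.0031 without replicate 3 to 0.13 without replicate 1. Overlapping minus nested moved from 0.38 to 0.63 per peak, neighbours minus overlapping from 0.47 to 0.31 in semicoherent peaks, and head to tail minus head to head from 0.86 to 0.44 per GATC fragment. The cause was not tested. With 3 libraries no exact p can go below 0.25, so no difference of medians could pass 0.05.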
